A study of Oryctolagus cuniculus with 12 samples.

Results

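LGALS3, CD44, SPP1 and MYH10, genes used to follow the switch of smooth muscle cells to a synthetic state, were examined in the rabbit basilar artery, the vessel along the brain stem, following experimentally produced subarachnoid hemorrhage, in which blood enters the fluid space that surrounds the brain. They are 4 of 10137 genes named on the array and were measured by 10 of its 43623 non-control probes, namely all probes that the gene name, accessions or description on the array assign to one of the 4 genes. LGALS3 had 5 probes, CD44 had 2, SPP1 had 1 and MYH10 had 2. Total RNA was hybridised to 12 single-colour Agilent arrays in 4 groups of 3, namely arteries taken on days 3, 5 and 7 after the hemorrhage and control arteries labelled normal (day 0). The labels name no strain, age, sex or method of inducing the bleed, and do not say whether the samples of a group were separate animals, so the p-values describe the spread among these samples alone, which may be technical.

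A mature arterial smooth muscle cell is contractile. After injury it can lower its contractile proteins and turn to division, migration and matrix production, the synthetic state. Galectin-3 (LGALS3) is a lectin that binds β-galactosides, and it is abundant in macrophages and in lipid-laden smooth muscle cells. CD44 is the cell surface receptor for hyaluronan and also binds osteopontin. Osteopontin (SPP1) is a secreted glycoprotein that signals through integrins and CD44. MYH10 encodes the heavy chain of non-muscle myosin IIB, which was described in rabbit arteries as the embryonic form that returns in dedifferentiated smooth muscle. Activated macrophages also make galectin-3, CD44 and osteopontin.

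The probes themselves decide which values are separate measurements. The 5 LGALS3 probes are 60 bases long, lie at chr17:73827303-73827366 on the plus strand and are each shifted by 1 base from the next, so that all share the 56 bases in capitals and are in effect 1 measurement. Probes 1 and 3 are shown because they differed in their call on day 5.
LGALS3 probe 1: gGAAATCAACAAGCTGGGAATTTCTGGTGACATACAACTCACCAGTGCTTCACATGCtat
LGALS3 probe 3: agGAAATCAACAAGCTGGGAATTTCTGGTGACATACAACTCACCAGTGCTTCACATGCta
The 2 CD44 probes, at chr1:174540604-174540663 and chr1:174540563-174540622 on the plus strand, share the 19 bases in capitals.
CD44 probe 1: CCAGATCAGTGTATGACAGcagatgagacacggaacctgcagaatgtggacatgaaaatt
CD44 probe 2: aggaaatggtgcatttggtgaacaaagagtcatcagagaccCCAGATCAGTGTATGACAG
The 2 MYH10 probes, at chr19:10778987-10779046 and chr19:10822584-10822643 on the plus strand, share no sequence and have no capitals, and are shown because their changes differed in sign.
MYH10 probe 1: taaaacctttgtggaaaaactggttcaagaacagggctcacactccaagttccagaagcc
MYH10 probe 2: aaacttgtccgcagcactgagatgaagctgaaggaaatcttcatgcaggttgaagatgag
The SPP1 probe lies at chr15:62156573-62156632 on the minus strand. Sequences and coordinates are those of the array files, which name no genome build and do not say which exon or untranslated region a probe lies in. Each probe covers 60 contiguous genomic bases.

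All 10 probes were well above background on all 12 arrays, and none was saturated or had an outlier flag. Levels are given as the log2 of the processed signal minus that of the array's own 75th percentile, so that 0 is the level of that percentile, and changes are differences of group means on this scale. A change was called at an adjusted p below 0.05 (limma, two-sided, Benjamini-Hochberg over all 26434 tested probes). The value of a gene is that of its probe with the highest mean, here probe 1. Replicates 1, 2 and 3 correspond to 3 slides, every one of which carried 1 array per group. Control replicate 2 stood apart in quality, since 50.1% of its spots exceeded background clearly, while elsewhere the share was 58.2% to 64.0%. When arrays were weighted, all arrays of slide 3 had low weights. These were 0.380 for control replicate 3, 0.563 on day 3, 0.356 on day 5 and 0.697 on day 7. Control replicate 2 had 0.481, and the other arrays had 1.16 to 2.58. Calls of the 4 genes that were lost or gained without control replicate 2 or control replicate 3, and list counts that changed, are given with and without that array.

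**Figure D1:**
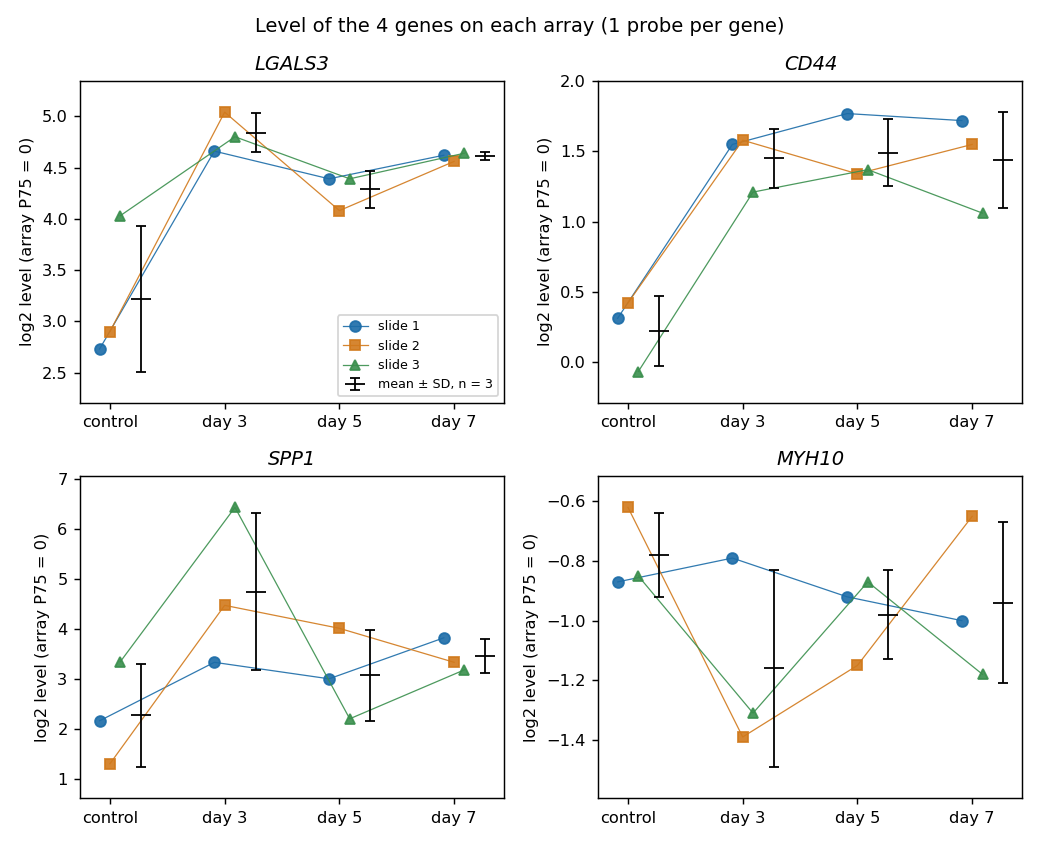
Level of LGALS3, CD44, SPP1 and MYH10 (probe 1 of each gene) on the 12 arrays, as log2 signal minus that of each array's 75th percentile (P75). Points are arrays, lines join the arrays of 1 slide, and black marks are group means with SD (n = 3); LGALS3 and CD44 lie above all controls on every day, SPP1 and MYH10 overlap with them, and the axes differ between panels.

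CD44 was called higher on all 3 days and LGALS3 on days 3 and 7, SPP1 had the largest mean change on day 3 and the widest spread of the 4 genes, and MYH10 had no call on any day. On day 3, 7 of the 10 probes were called, all higher, against 4.71% of all tested probes called higher (6.64% in either direction). On day 5 it was 3 of 10, against 1.78% (2.02% in either direction), and on day 7 it was 7 of 10, against 1.86% (2.26% in either direction). By gene, with 1 probe each, 2 of the 4 genes were called higher on day 3, against 4.78% of 7302 named genes, 1 of 4 on day 5 (1.89%) and 2 of 4 on day 7 (1.94%). The arrays of a day lay wholly above the controls for 7 of 10 probes on each day, namely those of LGALS3 and CD44, against 13.1% of tested probes on day 3, 10.3% on day 5 and 12.3% on day 7. The 3 comparisons share the same control arrays. The 4 genes and the gene lists below were chosen with earlier results of these data known, so their shares of calls are descriptions only. In RNA of a whole artery, a change in the number of cells of a type and a change in RNA per cell cannot be told apart.

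**Figure D2:**
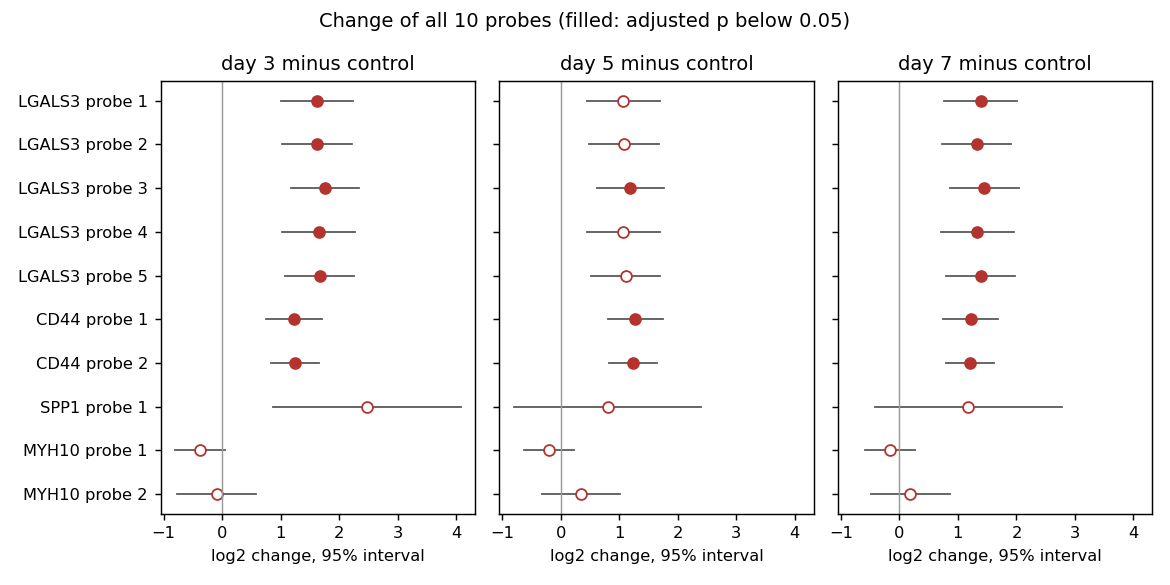
Log2 change of all 10 probes on days 3, 5 and 7 minus control, with 95% intervals from the fit of all 12 arrays and filled points for calls. The 5 LGALS3 probes share 56 bases and move as a block, both CD44 probes stay near 1.2 on every day, and the SPP1 interval is the widest.

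CD44, the hyaluronan receptor, rose on all 3 days by about the same amount. CD44 probe 1 stood at 1.55, 1.58 and 1.21 on day 3 (replicates 1 to 3), at 1.77, 1.34 and 1.37 on day 5 and at 1.72, 1.55 and 1.06 on day 7, against 0.31, 0.42 and -0.07 in the controls. All 9 arrays after hemorrhage lay above the highest control. The mean was 1.45 ± 0.21 on day 3, 1.49 ± 0.24 on day 5 and 1.44 ± 0.34 on day 7, against 0.22 ± 0.25 in the controls (SD, n = 3 each).

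The CD44 change on day 3 was 1.23 (SE 0.21, 95% interval 0.75 to 1.70, adjusted p = 0.00711), or 2.34-fold. It was 1.27 on day 5 (interval 0.80 to 1.74, adjusted p = 0.0112, 2.42-fold) and 1.22 on day 7 (interval 0.75 to 1.69, adjusted p = 0.0143, 2.33-fold). These are called rises on each day. Within slides 1, 2 and 3 the difference was 1.24, 1.16 and 1.27 on day 3, 1.47, 0.92 and 1.44 on day 5, and 1.41, 1.13 and 1.13 on day 7, so every slide showed it. With slide as a block the adjusted p was 0.00224, 0.00336 and 0.00414 on days 3, 5 and 7.

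CD44 probe 2, which reads mostly other bases, gave changes of 1.24 on day 3, 1.23 on day 5 and 1.20 on day 7 (adjusted p = 0.00302, 0.00619 and 0.00803). Its arrays stood at 0.90, 1.06 and 0.79 on day 3, at 1.09, 0.90 and 0.74 on day 5 and at 1.09, 0.94 and 0.58 on day 7, against -0.07, -0.29 and -0.61 in the controls. Both probes thus put every day above every control. Between days, CD44 probe 1 differed by 0.05 on day 5 against day 3 (interval -0.42 to 0.52) and by -0.05 on day 7 against day 5 (interval -0.52 to 0.42), so differences of up to 0.52 in either direction lie within these intervals. The call on day 3 held without any 1 of the 12 arrays, the call on day 5 was lost without day 5 replicate 1 (1.13, adjusted p = 0.053), and the call on day 7 was lost without day 7 replicate 1 (1.08, 0.0699) or replicate 2 (1.17, 0.0561).

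LGALS3, galectin-3, was highest on day 3 and was called on days 3 and 7. LGALS3 probe 1 stood at 4.66, 5.04 and 4.80 on day 3, at 4.39, 4.08 and 4.39 on day 5 and at 4.62, 4.56 and 4.64 on day 7, against 2.73, 2.90 and 4.03 in the controls. All arrays after hemorrhage lay above the controls, but control replicate 3 stood far above the other controls and just under the lowest array of day 5. The mean was 4.84 ± 0.19 on day 3, 4.29 ± 0.18 on day 5 and 4.61 ± 0.04 on day 7, against 3.22 ± 0.71 in the controls (SD, n = 3 each).

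The LGALS3 change was 1.62 on day 3 (SE 0.28, interval 1.0 to 2.23, adjusted p = 0.00704), or 3.06-fold. On day 5 it was 1.07 (interval 0.45 to 1.69, adjusted p = 0.0909, 2.10-fold), which missed the threshold, and on day 7 it was 1.39 (interval 0.77 to 2.01, adjusted p = 0.0291, 2.61-fold). The slide that holds control replicate 3 gave the smallest differences on every day. Within slides 1, 2 and 3 they were 1.93, 2.15 and 0.77 on day 3, 1.66, 1.19 and 0.36 on day 5, and 1.88, 1.67 and 0.61 on day 7. With slide as a block the adjusted p was 0.00943 on day 3, 0.0808 on day 5 and 0.0296 on day 7.

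The day 5 call of LGALS3 turned on that control. Without control replicate 3 the change was 2.02 on day 3 (adjusted p = 0.000285), 1.47 on day 5 (0.00323) and 1.79 on day 7 (0.00176), all called. When control replicate 2, the array of low quality, was left out, it was 1.45 on day 3 (0.0253), 0.91 on day 5 (0.232) and 1.22 on day 7 (0.0987), so the day 7 call was lost. The same call was also lost without control replicate 1 (1.14, 0.103) and without day 7 replicate 1 (1.38, 0.104), replicate 2 (1.41, 0.0781) or replicate 3 (1.37, 0.0949).

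The neighbouring LGALS3 probes read nearly the same bases and gave nearly the same values. Over the 5 probes the day 3 change was 1.62 to 1.76 (adjusted p 0.00312 to 0.00704). The day 5 change was 1.06 to 1.19 (0.0459 to 0.0934), and the day 7 change was 1.32 to 1.45 (0.0182 to 0.0359). On day 5 probe 3 alone was called (1.19, adjusted p = 0.0459), with arrays at 4.29, 4.03 and 4.41 on day 5 against 2.61, 2.77 and 3.79 in the controls. Its control replicate 3 was again the highest control. That call was lost without any 1 array other than control replicate 3 (0.97 to 1.30).

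In the order of its levels, LGALS3 ran day 3, day 7, day 5 and control, and the arrays of these neighbours did not overlap for any of the 5 probes. No difference between days was called. On day 5 against day 3 the change of probe 1 was -0.55 (interval -1.17 to 0.07, adjusted p = 0.764), on day 7 against day 3 it was -0.23 (interval -0.85 to 0.39, adjusted p = 0.822) and on day 7 against day 5 it was 0.32 (interval -0.30 to 0.94, adjusted p = 1). Within slides 1, 2 and 3, day 5 minus day 3 was -0.27, -0.96 and -0.41. Of all 10 probes none was called on day 5 against day 3 (limma; 1 at an unadjusted p below 0.05, that of SPP1), on day 7 against day 3 (0 unadjusted) or on day 7 against day 5 (0 unadjusted), where 0.0113%, 0.144% and 0% of tested probes were called. Arrays that lay wholly below day 3 were found for 6.34% of tested probes on day 5 and for 10.2% on day 7, and those wholly above day 5 for 3.35% on day 7.

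SPP1, osteopontin, had the largest mean change of the 4 genes on day 3 and no call on any day. SPP1 stood at 3.33, 4.47 and 6.43 on day 3, at 3.00, 4.01 and 2.20 on day 5 and at 3.82, 3.33 and 3.18 on day 7, against 2.16, 1.30 and 3.34 in the controls. Day 3 replicate 3 was the highest of the 12 arrays, control replicate 3 was the highest control, and each day overlapped with the controls, on day 3 by 1 array that equalled the highest control within 0.01. The mean was 4.74 ± 1.57 on day 3, 3.07 ± 0.91 on day 5 and 3.45 ± 0.34 on day 7, against 2.27 ± 1.03 in the controls (SD, n = 3 each).

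The SPP1 difference from the controls on day 3 was 2.47 (interval 0.87 to 4.08, adjusted p = 0.0692), or 5.56-fold. It was 0.80 on day 5 (interval -0.80 to 2.40, adjusted p = 0.69) and 1.18 on day 7 (interval -0.42 to 2.78, adjusted p = 0.431). The day 3 interval lay above 0 although the adjusted p missed the threshold, and those of days 5 and 7 held 0. Within slides 1, 2 and 3 the difference was 1.17, 3.17 and 3.08 on day 3, so day 3 lay above the control of the same slide each time. Samples of 1 slide were not assumed to be paired. On day 5 it was 0.84, 2.71 and -1.14, and on day 7 1.67, 2.03 and -0.16, with slide 3 going the other way.

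The spread of SPP1 within groups was among the widest on the array. Its residual SD was 1.05, against a median of 0.27 over 26325 tested probes without a missing spot, and 98.2% of these probes had a smaller one. For LGALS3 it was 0.38 (74.9% smaller), for CD44 0.27 (48.5%) and for MYH10 0.23 (38.3%). Of the 12 fits without 1 array, only 2 gave SPP1 a call on day 3. Without control replicate 3 its day 3 change was 3.01 (adjusted p = 0.0459), and without day 3 replicate 1 it was 3.18 (0.0285). Without control replicate 2 it was 1.99 (0.185). Over all 12 such fits the change lay between 1.63 and 3.18, and the adjusted p between 0.0285 and 0.226.

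Between days, SPP1 on day 5 differed from day 3 by -1.67 (interval -3.27 to -0.07, adjusted p = 0.681), and the slides gave -0.33, -0.46 and -4.23, so slide 3 supplied most of it. On day 7 against day 3 it differed by -1.30 (interval -2.90 to 0.31, adjusted p = 0.549), with -1.14 and -3.24 on slides 2 and 3 and 0.50 on slide 1. Red cell genes were also uneven over the arrays. The summed level of 3 erythroid genes was 63.1, 110 and 353 on day 3, 253, 171 and 469 on day 5, and 363, 305 and 382 on day 7, against 162, 101 and 122 in the controls, in units of the 75th percentile. It was highest on slide 3 on each day after hemorrhage, where SPP1 was highest on day 3 and lowest on days 5 and 7; its part in the result was not tested.

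MYH10, non-muscle myosin IIB, had no call on any day, and its probes differed in sign on days 5 and 7. MYH10 probe 1 stood at -0.79, -1.39 and -1.31 on day 3, at -0.92, -1.15 and -0.87 on day 5 and at -1.0, -0.65 and -1.18 on day 7, against -0.87, -0.62 and -0.85 in the controls. The 4 groups overlapped throughout. The mean was -1.16 ± 0.33 on day 3, -0.98 ± 0.15 on day 5 and -0.94 ± 0.27 on day 7, against -0.78 ± 0.14 in the controls (SD, n = 3 each).

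MYH10 probe 1 changed by -0.38 on day 3 (interval -0.81 to 0.05, adjusted p = 0.293), -0.20 on day 5 (interval -0.63 to 0.23, adjusted p = 0.725) and -0.16 on day 7 (interval -0.59 to 0.27, adjusted p = 0.709). The upper bounds of these intervals were at most 0.27. MYH10 probe 2, elsewhere in the gene, stood at -2.97, -3.22 and -3.03 on day 3, at -2.36, -2.55 and -2.99 on day 5 and at -2.57, -2.37 and -3.44 on day 7, against -3.28, -2.40 and -3.25 in the controls. Its changes were -0.09 on day 3 (interval -0.77 to 0.58, adjusted p = 0.902), 0.35 on day 5 (interval -0.33 to 1.02, adjusted p = 0.683) and 0.18 on day 7 (interval -0.49 to 0.86, adjusted p = 0.797). Its intervals are wider and leave room for a rise of up to 1.02 on day 5.

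Contractile genes, the other side of the switch, leaned lower while few were called. Of 25 contractile smooth muscle genes tested, 2 fell on day 3, against 2.04% of named genes called lower, and none was called on day 5 (0.219%) or day 7 (0.589%). Among those that fell was MYL9, the regulatory myosin light chain (-0.64, adjusted p = 0.0452). The list median was -0.40 on day 3, -0.37 on day 5 and -0.51 on day 7, against -0.01, 0.02 and 0.03 over all 7302 named genes. No contractile gene was called on day 3 without control replicate 2, and without control replicate 3, 3 were called lower on day 3, 1 on day 5 and 3 on day 7.

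The contractile genes ACTA2, MYH11 and TAGLN had the same direction without a call. ACTA2, smooth muscle actin, changed by -0.69, -0.54 and -0.62 on days 3, 5 and 7 (adjusted p = 0.142, 0.376 and 0.236). MYH11, smooth muscle myosin, changed by -0.84, -0.69 and -0.80 (0.121, 0.312 and 0.195), and TAGLN, transgelin, by -0.58, -0.71 and -0.74 (0.0852, 0.0775 and 0.0608). These 3 genes were well above background on all 12 arrays. The summed level of the 25 genes in units of the 75th percentile was 917 to 1050 (day 3), 905 to 1080 (day 5) and 936 to 1220 (day 7), against 1260 to 1380 in the controls.

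Of 13 other genes of the synthetic state tested, 4 rose on day 3, 1 on day 5 and 3 on day 7, against 4.78%, 1.89% and 1.94% of named genes called higher. None of the 13 was called lower, and the list median was 0.54, 0.40 and 0.51. COL1A1, a chain of type I collagen, rose by 1.56 on day 3, 1.62 on day 5 and 1.57 on day 7 (adjusted p = 0.00254, 0.00453 and 0.00578). COL3A1, type III collagen, rose by 0.93 on day 3 and 1.04 on day 7 (0.0329 and 0.0375). LUM, the matrix proteoglycan lumican, rose by 1.13 and 1.02 on these days (0.0172 and 0.0491), and MGP, matrix Gla protein, by 1.09 on day 3 (0.032). The count without control replicate 2 was 2 on each day, and without control replicate 3 it was 3, 2 and 3. VIM, vimentin, had no named probe here. Which cells of the artery made the transcripts of this list was not tested. The 9 fibroblast and leptomeningeal genes tested had medians of 0.41, 0.56 and 0.80 on days 3, 5 and 7.

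Of 10 regulators of the smooth muscle state tested, 2 rose on day 3, against 4.78% of named genes called higher, and none was called on days 5 and 7. TGFBR2, a TGF-β receptor, rose by 1.12 on day 3 (adjusted p = 0.0326), and PDGFRB, a PDGF receptor, by 0.85 (0.046). MYOCD, the coactivator of contractile genes, differed by -1.05 on day 3 (0.159). The list median was 0.23, 0.19 and 0.05 on days 3, 5 and 7. On day 3, 0 of the 10 were called without control replicate 2, and 1 was without control replicate 3.

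Around CD44, the hyaluronan-binding protein TNFAIP6 was called on all 3 days. TNFAIP6 rose by 3.67 on day 3, 2.45 on day 5 and 2.19 on day 7 (adjusted p = 0.00111, 0.0233 and 0.0377). MMP9, a gelatinase that also cuts osteopontin and can dock on CD44, fell by 1.71 on day 5 (0.0249) and by 2.41 on day 7 (0.00441), and differed by -0.24 on day 3 (0.74). No other gene of the 15 tested in the hyaluronan and CD44 list was called, and the list median was 0.04, 0.13 and 0.00 on days 3, 5 and 7. MSN, moesin, which ties CD44 to actin, differed by 0.64 on day 3 (0.0887), and HAS2, a hyaluronan synthase, was not well above background in any whole group. MMP9 on day 5 was not called without control replicate 2 or control replicate 3, nor TNFAIP6 on day 7 without control replicate 2. Without control replicate 2 the list had 2 genes called higher and 1 lower on day 3, against 1 and 0 with all arrays.

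The integrin receptors of osteopontin had no call. Of 11 tested genes of osteopontin receptors and processing, MMP9 alone was called, lower on days 5 and 7, and the list median was 0.03, 0.16 and 0.23. None of this list was called lower on day 5 without control replicate 2. Without control replicate 3, 1 gene other than MMP9 was called lower on day 5, and 2 genes were on day 7. ITGAV, the integrin αV chain, differed from the controls by 0.03, 0.05 and 0.23 on days 3, 5 and 7 (adjusted p = 0.944, 0.94 and 0.55), and ITGB1, the β1 chain, by 0.13, 0.16 and 0.29 (0.663, 0.683 and 0.32). MMP9 is in both lists and among the neutrophil markers, so its calls in the lists are 1 result.

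Of the other galectins and galectin ligands, 5 genes were tested. LGALS4, galectin-4, known mainly from gut epithelium, rose by 1.51 on day 3 (adjusted p = 0.00382) and 1.06 on day 7 (0.0413), and differed by 0.97 on day 5 (0.0668). TFRC, the transferrin receptor, fell by 1.03 on day 3 (0.0446) and by 1.19 on day 7 (0.0444). The list median was 0.13, 0.42 and 0.29 on days 3, 5 and 7. Without control replicate 2 neither fall of TFRC was called, nor LGALS4 on day 7. Without control replicate 3 the fall of TFRC on day 3 was not called, and 1 gene of the list was called higher on day 5. LGALS1 had no named probe here.

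Beside MYH10, 10 genes of non-muscle myosin and its control were tested. Of these, 2 were called higher on day 3, 0 on day 5 and 1 on day 7, against 4.78%, 1.89% and 1.94% of named genes, and none was called lower. ANLN, anillin, the scaffold of the cleavage furrow, was not well above background on any control array and was at least 2.08-fold higher on day 3 (adjusted p = 0.00129) and at least 1.22-fold higher on day 7 (0.0143). Such a bound sets the mean of the day against the mean, per control array, of the lowest signal well above background or the probe's own signal, whichever is higher. The list median was -0.09, 0.09 and 0.03 on days 3, 5 and 7, and without control replicate 2 or control replicate 3 the count higher on day 3 was 1. On day 5, 1 was called higher without control replicate 2, and 1 was called lower on day 3 and on day 7 without control replicate 3. MYH9, the other main vascular non-muscle myosin, had no named probe here.

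**Figure D3:**
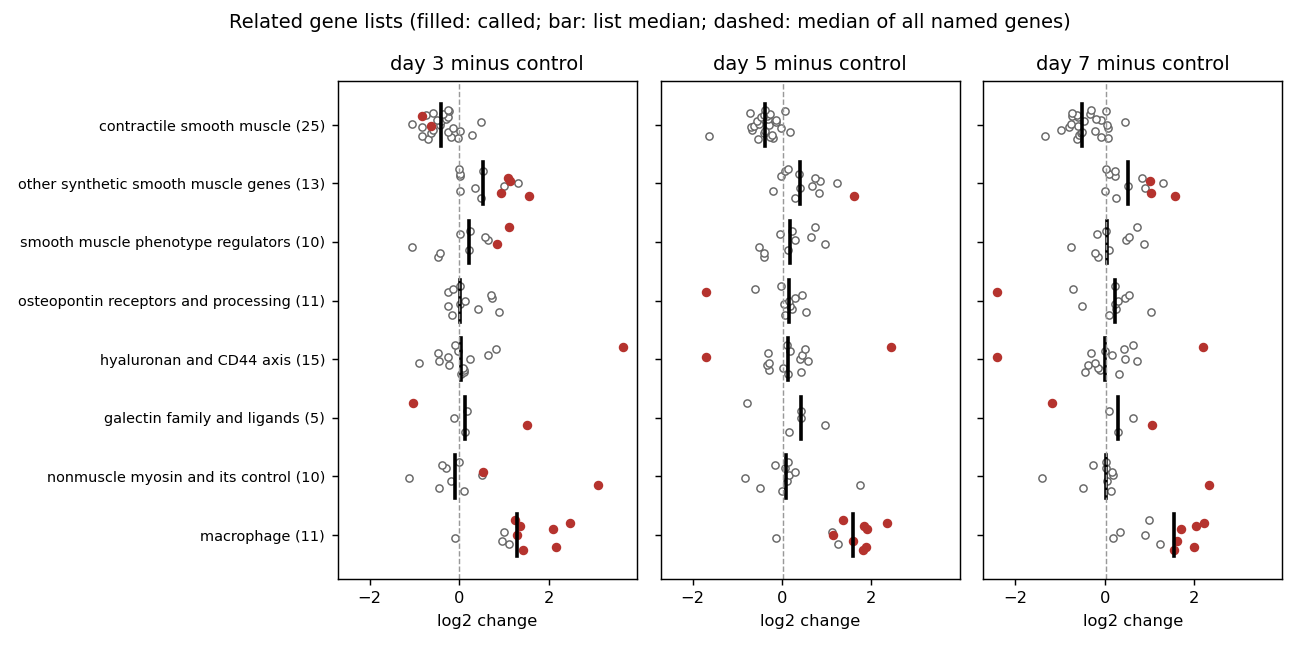
Log2 change of the tested genes of 8 lists on days 3, 5 and 7 minus control, 1 point per gene, filled where called, with a bar at the list median and a dashed line at the median of all named genes. Contractile genes lie mostly left of the line and macrophage genes right of it, with medians of -0.40 and 1.30 on day 3; ANLN is drawn at its fitted change, which is not a bound.

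Of 11 macrophage genes tested, 7 were called higher on day 3, 8 on day 5 and 6 on day 7, against 4.78%, 1.89% and 1.94% of named genes, with list medians of 1.30, 1.58 and 1.55. CD68 rose by 2.17, 1.88 and 2.0 on days 3, 5 and 7 (adjusted p = 0.000126, 0.00106 and 0.000618) and CD14 by 1.44, 1.81 and 1.55 (0.00291, 0.00196 and 0.00473). MSR1, a scavenger receptor, rose by 2.47, 2.34 and 2.22 (0.00966, 0.0253 and 0.0312). The summed level of the list was 34.7 to 41.4 (day 3), 37.1 to 51.7 (day 5) and 32.8 to 41.0 (day 7), against 11.7 to 18.3 in the controls. Its control values were 18.3, 11.7 and 15.1 for replicates 1 to 3, and control replicate 3 was the highest control for LGALS3 and SPP1. The summed control levels of the 9 fibroblast and leptomeningeal genes were 1650, 1290 and 2410, highest in replicate 3. ITGAX and MARCO were not well above background in any whole group. The part of macrophages or fibroblasts in the changes of LGALS3, CD44 and SPP1 was not tested. Without control replicate 2 the counts of macrophage genes were 5, 5 and 5, and without control replicate 3 they were 7, 5 and 6.

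Profiles over the 12 arrays were compared by the root mean square difference of log2 levels, each gene centred on its own mean, over 7275 named genes without a missing spot. For LGALS3, whose own SD over the arrays was 0.69, the nearest were LGALS4 (0.22), the amino acid transporter SLC7A6 (0.25) and LUM (0.26). The LGALS4 probe shares no run longer than 7 bases with any LGALS3 probe on the same strand. The rest of the LGALS3 transcript was not compared, so whether LGALS3 RNA binds the LGALS4 probe was not tested. For CD44, with an SD of 0.58, the nearest were the lysosomal membrane protein SCARB2 (0.24), the actin-capping protein CAPG (0.25) and COL1A1 (0.26). Between LGALS3 and CD44 the difference was 0.49, between LGALS3 and SPP1 0.93, and between CD44 and SPP1 1.17. By nearness to LGALS3, CD44 ranked 260, MYH10 5455 and SPP1 6247 among the named genes. By nearness to CD44, LGALS3 ranked 569, MYH10 4685 and SPP1 7093. By nearness to SPP1, whose own SD was 1.24, LGALS3 ranked 84, CD44 1443 and MYH10 6354. The measure also grows with the size of a gene's own changes. The arrays share their groups and slides, so these values are descriptions of likeness only.

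**Figure D4:**
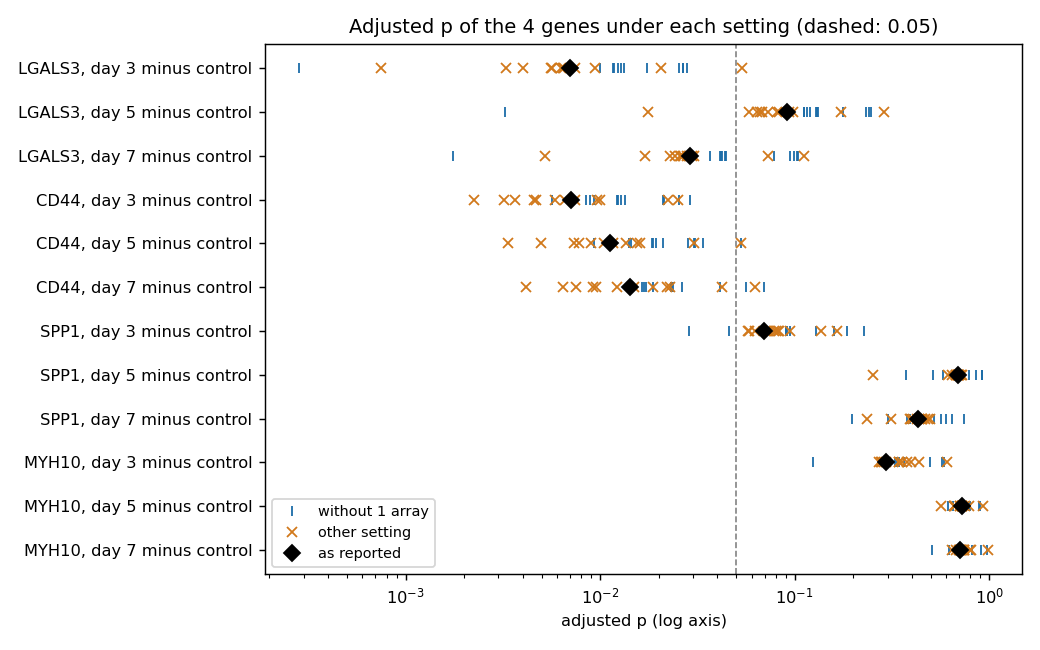
Adjusted p (log axis) of the 4 genes on days 3, 5 and 7 minus control, as reported (diamonds), without 1 array at a time (bars) and under the other settings (crosses), with the threshold of 0.05 dashed. CD44 on day 3 stays left of the line in every setting, LGALS3 on day 7 lies on both sides, and MYH10 stays right of it.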

How the data were processed

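RNA of 12 rabbit basilar artery samples was measured on 1-colour arrays. The authors deposited scanner output of Agilent Feature Extraction (version 9.5.1.1, per the submitters' processing notes). The processed signal is an intensity, background-subtracted and detrended within its array, per the file headers. The mean signal and background intensity and the spot flags (other values, 0 or 1) are also per the file headers. The authors' deposited value table, linear intensity with a median of 27.0 in every column, served as an alternative only.

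Control spots and outlier-flagged spots were left out, the 75th percentile of each array was subtracted from its log2 processed signals, and spots were averaged per probe. A probe was tested if well above background on all 3 arrays of a group (26434 of 43623). Probes were named with a RefSeq gene table (mOryCun1.1) used for names only: 22482 had 1 gene, 310 several and 20831 none. 1 probe that lists transcripts of MYH10 and of another gene was kept out of the members. The fit used limma 3.58.1 (R 4.3.3) on all 12 arrays without a block and was tested on simulated data. The number of arrays limits the precision.

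Replicate number equals slide. Same-numbered arrays deviated together unevenly (correlations of deviations -0.15 to 0.39), so pairing was not assumed, and slide was used as a block in an alternative. Members and gene lists were chosen with earlier results of these data known. Named from each list were up to 4 called genes with the largest change, or the 2 smallest p where none was called, and 11 fixed genes, of which those described were picked after values were seen; some are not reported here. Alternatives were quantile, median and normexp scaling, filters on dim probes, array weights, moderation, probe choice, the deposited table, slide blocks, 2-group fits and leaving out each array.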

Additional observations from a re-analysis of the deposited data

How the results depend on the processing

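Against control, 12 gene results (4 genes, 3 days) were recomputed under 24 settings each. CD44 on day 3, SPP1 on days 5 and 7 and MYH10 on day 3 kept direction and side of the threshold in all 24. Without the dim probe filter LGALS3 on day 7 missed the threshold (1.39, adjusted p = 0.0733), and with array weights LGALS3 on day 5 passed it (1.23, 0.0176). With only the 2 groups compared, LGALS3 on days 3 and 7 (1.62 and 1.39) and CD44 on days 5 and 7 (1.27 and 1.22) lost their calls. Such a fit has fewer arrays to estimate the spread, whereas the reported fit pools the spread of all 4 groups. For LGALS3 probe 1 the SD was 0.71 in the controls, 0.19 on day 3, 0.18 on day 5 and 0.04 on day 7. With the mean of all tested probes MYH10 was 0.07 on day 5 and 0.01 on day 7, and its second probe on day 3 was 0.00 with quantile normalization and 0.02 with normexp. Leaving out 1 array gave that probe -0.25 to 0.19 for day 3 and -0.03 to 0.51 for day 7. For days 3, 5 and 7 it gave LGALS3 1.37 to 2.02, 0.82 to 1.47 and 1.14 to 1.79; CD44 1.08 to 1.34, 1.13 to 1.37 and 1.08 to 1.41; SPP1 1.63 to 3.18, 0.32 to 1.34 and 0.69 to 1.72; MYH10 -0.57 to -0.27, -0.25 to -0.11 and -0.31 to -0.04. Between days it turned the sign of CD44 (-0.09 to 0.13, -0.14 to 0.19 and -0.19 to 0.14 for day 5 against 3, 7 against 3 and 7 against 5), of MYH10 on day 7 against 5 (-0.11 to 0.15) and of SPP1 there (-0.06 to 0.85). The replicate block changed no member's call, probe 1 of LGALS3 on day 7 keeping an adjusted p of 0.0296; by slide numbers not assumed to pair samples it moved the called probes on day 7 against control from 597 to 954 and on day 7 against day 3 from 38 to 2. Counts over all probes, other probes of the genes and gene lists without control replicates 2 or 3 were compared as choices made after the data were seen. The counts over all probes were 1754, 533 and 597 on days 3, 5 and 7. They were 974, 345 and 305 without the dim filter and 897, 210 and 292 with only 2 groups. Array weights gave 1145 and 1586 on days 5 and 7, normexp 306 on day 5 and a filter on all 12 arrays 311 on day 5. Without 1 array they lay between 789 and 1943, 280 and 685, and 229 and 1692. For day 5 against day 3 (3 probes) normexp gave 24, array weights 255, trend and robust moderation 6, the 12-array filter 0, and leaving out 1 array 0 to 5. For day 7 against day 3 (38) normexp gave 66, array weights 227, the authors' deposited values 20, no dim filter 3, and leaving out 1 array 2 to 70. Where no value above shows it, the cause was not tested. Median scaling moved the median of all probes on day 7 to 0.13, against 0.06 as reported. All 10 probes were well above background, but MYH10 probe 2 was dim, with processed signals of 13.4 to 35.7.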

Other observations

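A further probe lists transcripts of MYH10 together with a transcript of another gene and lies at chr4:85464875-85464934, so it cannot be assigned. It stood at 1.77, 1.68 and 1.67 on day 3, at 1.95, 1.97 and 1.68 on day 5 and at 1.99, 2.18 and 1.66 on day 7, against 2.16, 1.89 and 2.11 in the controls, as log2 levels. The day 3 arrays lay below all controls and the other days overlapped with them. Its change was -0.35 on day 3 (interval -0.71 to 0.01, adjusted p = 0.247), -0.19 on day 5 (0.679) and -0.11 on day 7 (0.768).

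Of 19 cell cycle genes tested, 15 were called higher and 1 lower on day 3, 9 higher on day 5 and 9 higher on day 7, against 4.78%, 1.89% and 1.94% of named genes called higher and 2.04% called lower on day 3. The higher counts were 11, 10 and 9 without control replicate 2 and 15, 8 and 11 without control replicate 3. The lower call was lost without control replicate 2 or control replicate 3. Over all 15 alternative settings compared for this list, the higher count was 11 to 15 on day 3 and 2 to 11 on days 5 and 7. The list median lay between 0.54 and 2.36, 0.31 and 1.58, and 0.26 and 1.47 on days 3, 5 and 7. These genes were dim, with a mean log2 level of -3.42 to -3.15 in the controls. Of 8 lymphocyte genes, CD79B of B cells alone was called, at least 1.75-fold higher on day 3 (adjusted p = 0.00708), with list medians of 1.06, 0.58 and 0.22. Of 8 endothelial genes, KDR, a VEGF receptor, alone was called, at least 2.31-fold lower on day 3 (0.0162), with list medians of -0.57, -0.44 and -0.63, and 1 gene was called lower on day 7 without control replicate 3. Of 9 fibroblast and leptomeningeal genes, 2 were called higher and 2 lower on day 3, 1 higher on day 5 and 2 higher on day 7, with medians of 0.41, 0.56 and 0.80. APOD, apolipoprotein D, rose by 1.17, 0.88 and 0.92 (0.00276, 0.0263 and 0.0208), and PTGDS, prostaglandin D2 synthase, fell by 1.59 on day 3 (0.0029). Without control replicate 2, 1 fibroblast gene was called higher and 1 lower on day 3, none higher and 1 lower on day 5 and none on day 7, so the calls of APOD on days 5 and 7 were lost. Without control replicate 3, 3 were called higher on each day, and 2 lower on day 3 and 1 lower on day 7. Of 6 neutrophil genes MMP9 alone was called, lower on days 5 and 7, its day 5 call being lost without control replicate 2 or control replicate 3, and medians were -0.17, -0.08 and 0.06. No call was made among 3 erythroid genes (medians 0.07, 0.97 and 1.40) or 3 neural genes (-0.40, -0.40 and -0.37).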
